A study of Mus musculus with 6 samples.

Results

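Transcripts of 52 genes were followed, all of them genes of the lysosome or of its proton pump, out of 13192 genes in the longer of the deposited tables. They were picked by symbol, but the list was drawn up with earlier results of these data known. Of them, 32 are listed lysosomal proteins. The other 20 are the genes of the table whose symbol starts with Atp6v or Atp6ap, the subunits and partners of the vacuolar ATPase. The study compared RNA bound to tagged ribosomes in mouse cortex at postnatal day 25, pulled from cortical lysate by an anti-HA antibody coupled to beads. The Rheb conditional knockout (Rheb cKO) group has 3 libraries, whose titles give the alleles Rheb floxp/floxp and Ribo-HA k/+ and the driver Syn-Cre. Its genotype label reads Rheb knockdown. The Control group has 3 libraries with Rheb floxp/floxp and Ribo-HA k/+ in the title. The titles of both groups therefore give the floxed Rheb alleles and the allele for the ribosome tag. They differ in Syn-Cre, a name used for Cre recombinase driven by the neuronal synapsin promoter. Rheb is the small GTPase that switches on mTORC1, the kinase complex that couples nutrient supply to growth. Whether Control ribosomes carried the tag without Cre, and whether each library is a separate animal, is not given in the sources used here.

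The lysosome breaks down proteins, glycans and lipids with hydrolases that work in acid. The acid comes from the vacuolar ATPase, a rotary pump whose cytosolic V1 part burns ATP and whose membrane-bound V0 part moves protons. In neurons the same pump also fills synaptic vesicles, since transmitter uptake runs on the proton gradient. mTORC1 is activated by Rheb on the lysosome surface, and active mTORC1 holds back TFEB, a transcription factor that binds an E-box element in the promoters of many lysosomal genes.

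The levels are the authors' FPKM, fragments scaled to gene model length and library size, with 1 value per group pooled over its libraries. The spread between libraries and their depth are unknown here, so no SD is given, and the only measure of error behind a gene is the q-value of the authors' Cuffdiff test, with a gene called at a q under 0.05. Rheb, the targeted gene, stood at 9.20 FPKM in Rheb cKO and 22.7 FPKM in Control in the authors' deposited table (log2 fold change -1.30, q = 0.00161). A q of 0.00161 is the smallest that the Cuffdiff test gave here, at its smallest p-value of 5e-05. Genes that share this q are therefore not ranked by it. The summed FPKM of all listed genes was 597646 in Rheb cKO and 597927 in Control, and the median log2 fold change over the 13175 genes with a finite fold was 0.03. The labels call the cells neurons, and all 16 pan-neuronal markers were present, between 15.1 and 1754 FPKM in Rheb cKO and between 11.9 and 1488 FPKM in Control. Beside this, 21 of 24 markers of mature oligodendrocytes, the myelin-forming cells, fell in the authors' deposited table, where 4.58% of all genes did. The summed FPKM of the 24 markers was 1510 in Rheb cKO and 4350 in Control. None of these markers was at 0 in either group, the lowest being 0.0944 FPKM in Rheb cKO and 2.44 FPKM in Control. In such a precipitate, fewer cells of a type, less RNA per cell and a different carry-over of untagged RNA cannot be told apart. Lysosomal genes are expressed in all of these cell types, and the part that cell makeup has in the folds given here was not tested.

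By the authors' deposited table, 6 of the 52 lysosomal and pump genes were called, which is 11.5% of them, against 8.72% of all genes tested. Of these, 5 fell (9.62% of the members, against 4.58% of all genes) and 1 rose (1.92%, against 4.14%). The 5 that fell were Sgsh, Hexa, Atp6v0a2, Npc2 and Neu1, and the 1 that rose was Atp6v1g2. At an unadjusted p under 0.05, 10 members were lower and 4 higher, together 26.9% of the members against 21.2% of all genes. A stricter q under 0.01 left 3 members (4.71% of all genes pass it) and a q under 0.10 took in 8 (12.4% of all genes). Requiring a log2 fold of 0.5 or more in size as well left 4 (6.06% of all genes), and adjusting again after dropping genes whose mean FPKM is under 1 gave 6 (9.06% of those genes). Of the 52 members, 33 had a log2 fold change smaller than 0.2 in size, as did 6720 of all 13192 genes. The median log2 fold change over the members was -0.04, with 31 below 0 and 21 above. It was -0.16 over the listed lysosomal proteins and 0.01 over the pump, against 0.03 over all genes.

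**Figure D1:**
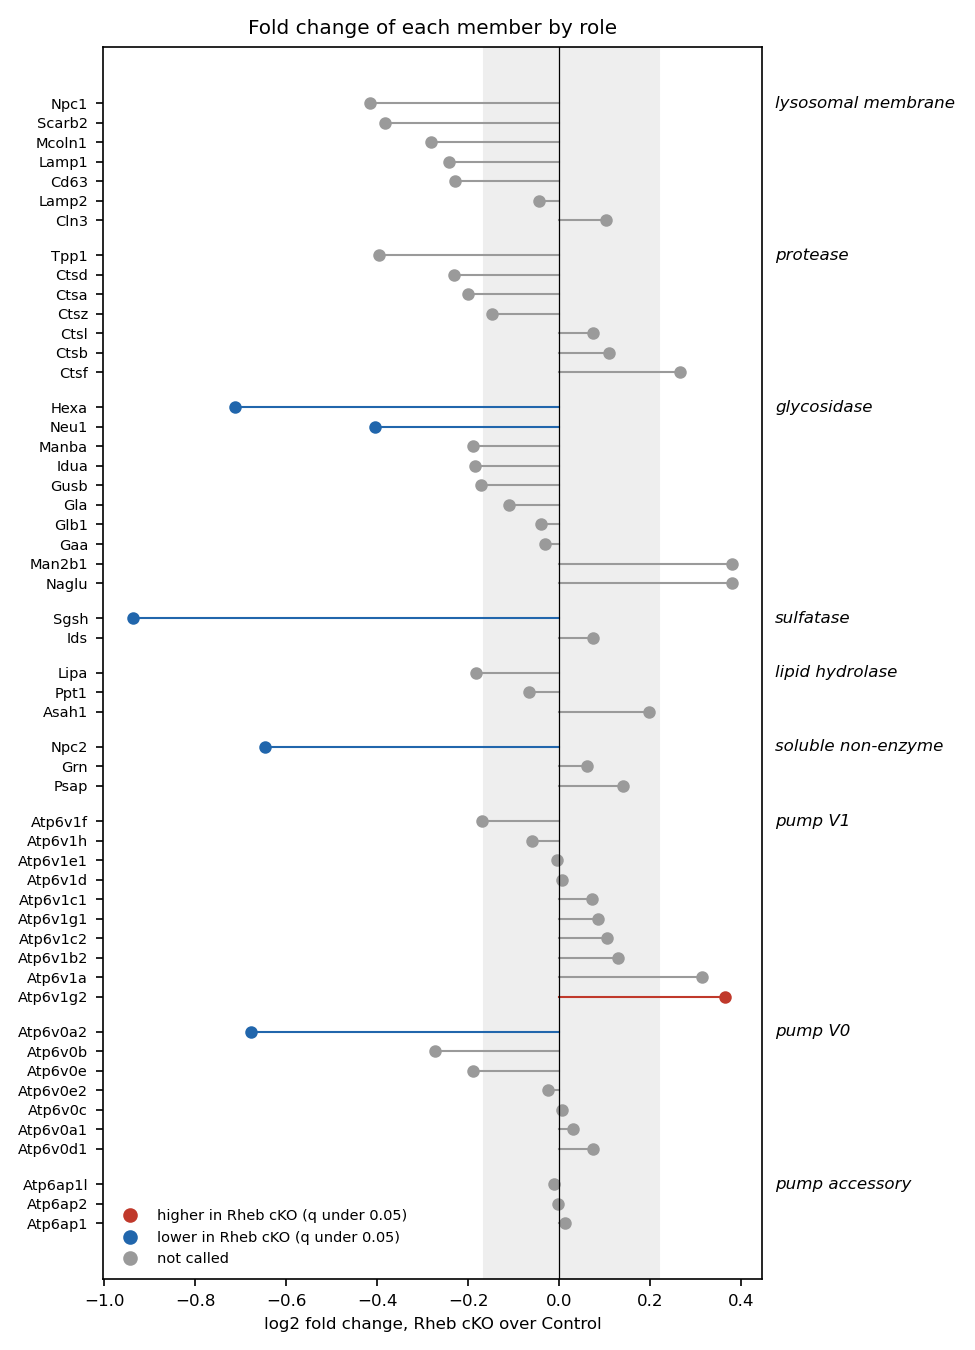
Log2 fold change of Rheb cKO over Control (horizontal axis) for each of the 52 members, grouped by role and ordered by fold within a role. Blue points are genes called lower, the red point the gene called higher and grey points genes not called at a q under 0.05. The grey band is the interquartile range of all genes tested, from -0.17 to 0.22, and the 5 blue points lie left of it.

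None of the 7 membrane proteins was called, where 8.72% of all genes were. A fold below 0 was found for 6 of the 7 (median -0.24, range -0.42 to 0.10). Their summed FPKM in Rheb cKO was 84.7% of that in Control. Lamp1, a glycoprotein that lines the lysosome, was the most abundant, with 101.6 FPKM in Rheb cKO and 120.2 FPKM in Control in the authors' deposited table (log2 fold change -0.24, q = 0.203). Lamp2, its relative and the receptor of chaperone-mediated autophagy, was far lower in both groups, at 5.87 FPKM in Rheb cKO and 6.06 FPKM in Control (q = 0.941 in the authors' deposited table). The tetraspanin Cd63, a protein of late endosomes and exosomes, had 84.9 FPKM in Rheb cKO and 99.5 FPKM in Control (q = 0.295 in the authors' deposited table). Mcoln1, the calcium channel through which lysosomes signal to TFEB, had 68.6 FPKM in Rheb cKO and 83.4 FPKM in Control (q = 0.403 in the authors' deposited table).

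The membrane proteins with the most negative folds were Npc1 and Scarb2. Npc1, which passes cholesterol out of the lysosome, was at 4.39 FPKM in Rheb cKO and 5.86 FPKM in Control in the authors' deposited table (log2 fold change -0.42, q = 0.102). Scarb2, a membrane protein that serves as a sorting receptor, was at 7.13 FPKM in Rheb cKO and 9.30 FPKM in Control (-0.38, q = 0.137) in the authors' deposited table. Both had an unadjusted p under 0.05 and missed the threshold after adjustment. Cln3, the membrane protein lost in human juvenile Batten disease, was the one with a fold above 0 (0.10, q = 0.891 in the authors' deposited table).

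Of the 22 hydrolases 3 fell and 19 were not called (median -0.13, with 15 below 0). Over all genes, 4.58% were called lower. The 7 proteases held none of the calls. Ctsd, the aspartic protease of the lysosome and the most abundant hydrolase, had 107.3 FPKM in Rheb cKO and 126.1 FPKM in Control in the authors' deposited table (log2 fold change -0.23, q = 0.273). Among the cysteine cathepsins, Ctsb had 71.0 FPKM in Rheb cKO and 65.9 FPKM in Control in the authors' deposited table (0.11, q = 0.738). Ctsf, another of them, had 36.6 FPKM in Rheb cKO and 30.4 FPKM in Control (0.26, q = 0.243 in the authors' deposited table). Ctsl (0.07) and Ctsz (-0.15) were not called either, with q of 0.827 and 0.822 in the authors' deposited table. Tpp1, which clips tripeptides from protein ends, was the protease nearest to a call, at 4.01 FPKM in Rheb cKO and 5.28 FPKM in Control (-0.40, q = 0.0885 in the authors' deposited table).

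Of the 10 glycosidases 2 fell, Hexa and Neu1, where 4.58% of all genes were called lower. Hexa encodes the alpha subunit of beta-hexosaminidase A, the enzyme that degrades GM2 ganglioside and is missing in human Tay-Sachs disease. Its level was 24.6 FPKM in Rheb cKO and 40.4 FPKM in Control in the authors' deposited table, so Rheb cKO held 61.0% of the Control level (log2 fold change -0.71, q = 0.00161). The gene spans chr9:59539540-59565109 on the plus strand of mm10. Gm2a, the activator protein that lifts GM2 from the membrane for this step, was named after its value was seen and had 15.3 FPKM in Rheb cKO and 14.9 FPKM in Control (0.04, q = 0.915 in the authors' deposited table). The difference between the folds of Hexa and Gm2a was not tested.

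Neu1, the sialidase that removes terminal sialic acids, had 26.8 FPKM in Rheb cKO and 35.6 FPKM in Control in the authors' deposited table (log2 fold change -0.41, q = 0.0337, 75.5% of Control). It lies on chr17:34931253-34935953, plus strand. Neu1 works in a complex with Ctsa, a carboxypeptidase that protects it, and with the beta-galactosidase Glb1. Ctsa had 46.7 FPKM in Rheb cKO and 53.6 FPKM in Control in the authors' deposited table (-0.20, q = 0.383). Glb1 had 9.86 FPKM in Rheb cKO and 10.1 FPKM in Control (-0.04, q = 0.954 in the authors' deposited table).

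The other 8 glycosidases were not called. Gaa, which degrades glycogen, was the most abundant of the class, at 101.2 FPKM in Rheb cKO and 103.5 FPKM in Control in the authors' deposited table (-0.03, q = 0.936). Man2b1 and Naglu had the highest folds of all 52 members, both 0.38 on the log2 scale, but their q in the authors' deposited table was 0.140 and 0.231. Man2b1, an alpha-mannosidase, stood at 4.74 FPKM in Rheb cKO and 3.64 FPKM in Control in the authors' deposited table. Manba, the beta-mannosidase, was the lowest member in both groups, at 0.778 FPKM in Rheb cKO and 0.887 FPKM in Control in the authors' deposited table. It was the only member with a mean FPKM under 1. The alpha-galactosidase Gla had 2.40 FPKM in Rheb cKO and 2.59 FPKM in Control (-0.11, q = 0.844 in the authors' deposited table).

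Sgsh had the most negative fold of the members on the ratio as deposited. It encodes the sulfatase that removes N-linked sulfate from heparan sulfate and is lost in a form of human Sanfilippo syndrome. Its level was low, 1.06 FPKM in Rheb cKO and 2.03 FPKM in Control in the authors' deposited table (log2 fold change -0.94, q = 0.0111, 52.2% of Control). The gene lies on chr11:119343425-119355536, minus strand. With 1 added to each FPKM its log2 fold change was -0.56, behind Hexa (-0.69), Npc2 (-0.62) and Atp6v0a2 (-0.61). Some other enzymes of heparan sulfate breakdown, grouped here after their values were seen, were not called. Among the members these are Naglu (0.38), Ids (0.07), Gusb (-0.17) and Idua (-0.18), by the log2 fold changes of the authors' deposited table. Ids, the iduronate sulfatase, was the most abundant of them, with 18.6 FPKM in Rheb cKO and 17.7 FPKM in Control (q = 0.814 in the authors' deposited table). Hgsnat, which acetylates heparan sulfate ends, had a fold of 0.32 (q = 0.172 in the authors' deposited table). Arsg, a further sulfatase that acts on heparan sulfate, had a fold more negative than that of Sgsh, with 2.57 FPKM in Rheb cKO and 5.70 FPKM in Control (-1.15, q = 0.107 in the authors' deposited table).

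None of the 3 lipid hydrolases was called, where 8.72% of all genes were, so the count says little about so small a class. The acid ceramidase Asah1 had 5.99 FPKM in Rheb cKO and 5.22 FPKM in Control (0.20, q = 0.526 in the authors' deposited table). Ppt1, which strips palmitate from proteins, had 18.8 FPKM in Rheb cKO and 19.7 FPKM in Control (-0.07, q = 0.944 in the authors' deposited table). Lipa, the acid lipase that frees cholesterol from its esters, had 2.00 FPKM in Rheb cKO and 2.28 FPKM in Control (-0.18, q = 0.664 in the authors' deposited table).

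Of the 3 soluble proteins that are not enzymes, Npc2 fell (4.58% of all genes were called lower). Npc2 binds cholesterol inside the lysosome and hands it to Npc1. It had 17.3 FPKM in Rheb cKO and 27.0 FPKM in Control in the authors' deposited table (log2 fold change -0.65, q = 0.00161, 63.9% of Control), and it lies on chr12:84754562-84773152, minus strand. Psap, the precursor of the saposins that help hydrolases reach sphingolipids, was the most abundant of the 32 lysosomal proteins. It had 1053 FPKM in Rheb cKO and 955.6 FPKM in Control (0.14, q = 0.603 in the authors' deposited table). Psap alone made up 53.4% of the summed FPKM of the 32 genes in Rheb cKO and 48.3% in Control. Without it, the sum was 918.2 FPKM in Rheb cKO and 1021 FPKM in Control, 89.9% of the Control value, whereas with it the sums were 1971 FPKM in Rheb cKO and 1977 FPKM in Control. Grn, progranulin, a growth factor that is also processed in lysosomes, had 50.4 FPKM in Rheb cKO and 48.3 FPKM in Control (0.06, q = 0.949 in the authors' deposited table).

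**Figure D2:**
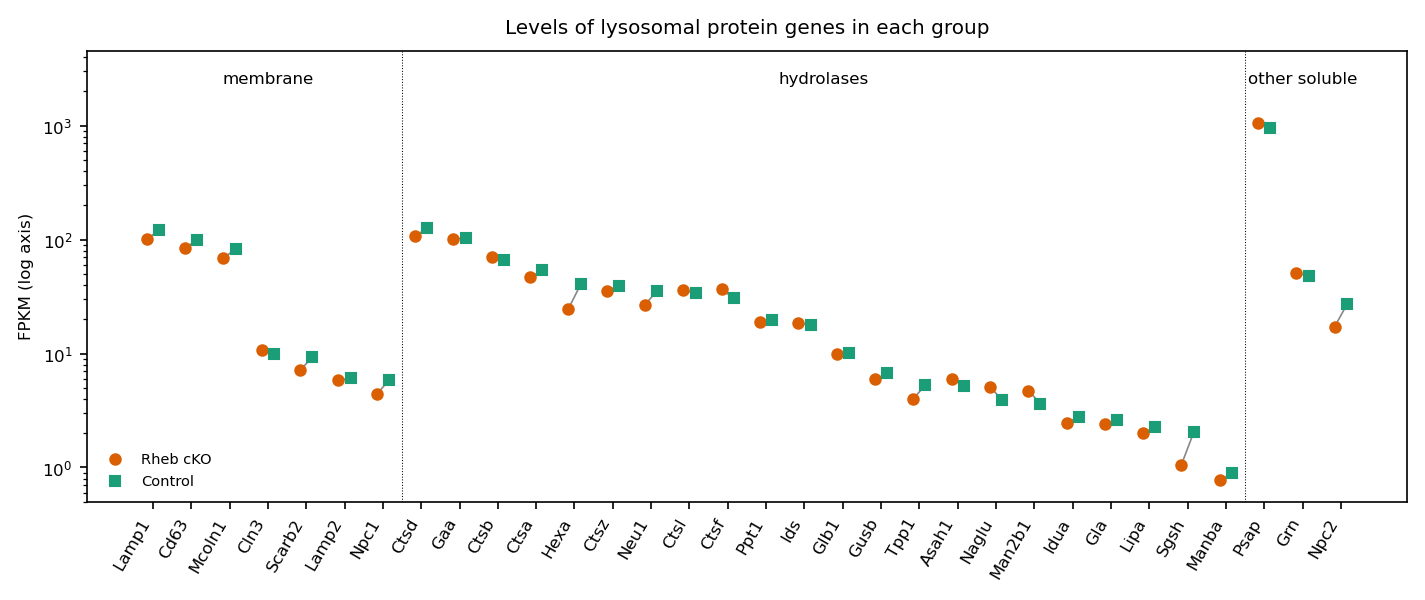
FPKM (vertical log axis) of the 32 lysosomal protein genes in Rheb cKO (circles) and Control (squares), with 1 pooled value per group, ordered by the Control level within each role. The gaps are widest at Hexa, Sgsh and Npc2, and Psap stands above every other gene in both groups.

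Pump transcripts were the more abundant class and the more even one. Their median FPKM was 166.7 in Rheb cKO and 164.4 in Control, against 17.9 in Rheb cKO and 18.7 in Control for the lysosomal proteins. The summed FPKM of the 20 genes was 5495 in Rheb cKO and 5392 in Control. Of the 20 folds, 16 were smaller than 0.2 in size on the log2 scale, and the interquartile range ran from -0.03 to 0.08, compared with -0.25 to 0.07 for the lysosomal proteins and -0.17 to 0.22 for all genes. Levels of these genes are high, and the precision of low and high genes differs, so the narrower range is a description and was not tested.

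Of the 10 V1 genes 1 rose, where 4.14% of all genes were called higher, and 7 had a fold above 0 (median 0.08). Atp6v1g2, the G isoform of neurons and a part of the stalk that holds the pump head, had 707.1 FPKM in Rheb cKO and 549.4 FPKM in Control in the authors' deposited table (log2 fold change 0.36, q = 0.0292). It was the most abundant V1 gene in both groups and lies on chr17:35233660-35238767, plus strand. Atp6v1a, the catalytic subunit that splits ATP, had 61.3 FPKM in Rheb cKO and 49.3 FPKM in Control (0.31, q = 0.0718), just outside the threshold in the authors' deposited table. Its partner in the catalytic ring, Atp6v1b2, had 324.4 FPKM in Rheb cKO and 296.5 FPKM in Control (0.13, q = 0.609 in the authors' deposited table). Atp6v1e1, which pairs with G in the stalk, had 431.3 FPKM in Rheb cKO and 433.1 FPKM in Control (-0.01, q = 0.988 in the authors' deposited table). The rotor subunits were not called either, Atp6v1d having a fold of 0.00 (q = 0.990) and Atp6v1f of -0.17 (q = 0.461) in the authors' deposited table. Atp6v1h, a regulatory subunit, had 39.2 FPKM in Rheb cKO and 40.9 FPKM in Control (q = 0.903 in the authors' deposited table).

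Of the 7 V0 genes 1 fell, where 4.58% of all genes were called lower. Atp6v0a2 encodes an isoform of the large membrane subunit that is known from the Golgi and endosomes, and its human counterpart is mutated in a form of cutis laxa. It had 7.35 FPKM in Rheb cKO and 11.8 FPKM in Control in the authors' deposited table (log2 fold change -0.68, q = 0.00161, 62.5% of Control), and it spans chr5:124628576-124724455 on the plus strand. Atp6v0a1, the isoform of nerve terminals, had 145.0 FPKM in Rheb cKO and 142.0 FPKM in Control (0.03, q = 0.941 in the authors' deposited table). Atp6v0c, which forms the proton-carrying ring, was the most abundant member of all 52, at rank 20 of the table in Rheb cKO and rank 19 in Control. It had 1902 FPKM in Rheb cKO and 1893 FPKM in Control (0.01, q = 0.988 in the authors' deposited table). Atp6v0b, the minor ring subunit, had 361.3 FPKM in Rheb cKO and 436.3 FPKM in Control (-0.27, q = 0.158 in the authors' deposited table), with an unadjusted p under 0.05. Atp6v0d1, the collar between ring and rotor, had a fold of 0.07 (q = 0.810 in the authors' deposited table).

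None of the 3 accessory genes was called, where 8.72% of all genes were. The log2 fold changes of the 3 lay between -0.01 and 0.01. Atp6ap1, needed for assembly of V0, had 188.3 FPKM in Rheb cKO and 186.9 FPKM in Control (q = 0.979 in the authors' deposited table). Atp6ap2, also known as the prorenin receptor, had 52.7 FPKM in Rheb cKO and 52.9 FPKM in Control (q = 0.992 in the authors' deposited table). Atp6ap1l, a relative of Atp6ap1, had 14.4 FPKM in Rheb cKO and 14.5 FPKM in Control (q = 0.988 in the authors' deposited table).

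**Figure D3:**
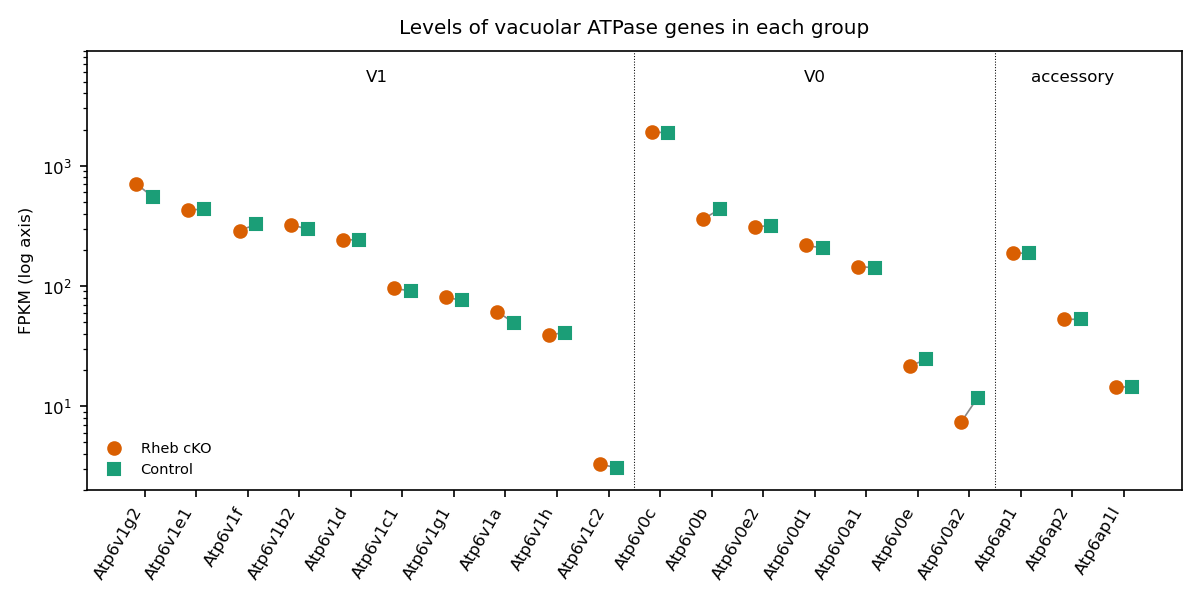
FPKM (vertical log axis) of the 20 vacuolar ATPase genes in Rheb cKO (circles) and Control (squares), with 1 pooled value per group, ordered by the Control level within V1, V0 and accessory genes. Circles and squares lie side by side for most genes; Atp6v0a2 is lower and Atp6v1g2 higher in Rheb cKO.

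The pump has several subunits with more than 1 gene, and each isoform's share of the summed FPKM of its subunit shows which form prevailed. For G, Atp6v1g2 made up 89.8% in Rheb cKO and 87.9% in Control, the rest being the broadly expressed Atp6v1g1, whose fold was 0.09 (q = 0.789 in the authors' deposited table). For the a subunit, Atp6v0a2 made up 4.82% in Rheb cKO and 7.65% in Control. With Tcirg1, the a3 isoform of osteoclasts and immune cells (-0.70, q = 0.247 in the authors' deposited table), counted as well, the share of Atp6v0a2 was 4.74% in Rheb cKO and 7.45% in Control. The brain-enriched e isoform Atp6v0e2 made up 93.6% in Rheb cKO and 92.8% in Control, against the ubiquitous Atp6v0e, and both were uncalled (-0.03, q = 0.950, and -0.19, q = 0.565, in the authors' deposited table). For C, the ubiquitous Atp6v1c1 made up 96.7% in both groups, with a fold of 0.07 (q = 0.820), and Atp6v1c2, an isoform of kidney and lung, had 3.29 FPKM in Rheb cKO and 3.06 FPKM in Control (q = 0.979), in the authors' deposited table. The dominant isoform of each of these 4 subunits was the same in both groups. No test of a share can be made from pooled values.

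Promoters of the members were read for the E-box that TFEB binds in many lysosomal genes, because active mTORC1 holds back TFEB. Whether loss of Rheb acts on these genes through this element was not tested. The windows run from 250 bases before to 50 bases after the transcript start in RefSeq (GRCm38.p6) and were at hand for 43 of the 52 genes; not matched were Npc1, Ctsb, Asah1, Atp6v0a2, Atp6v1b2, Atp6v1c1, Atp6v1g1, Atp6v1h and Atp6ap1l. The letters searched were the core CACGTG and the extended TCACGTGA, which contains the core; both read the same on the other strand. The core was present in 16 of the 43 (37.2%), against 8.09% of the 27025 gene symbols with such a window and 11.8% of the 9789 table genes that have one. The extended form was present in 8 of the 43 (18.6%), against 1.12% of all symbols and 2.23% of the table genes. These 8 are printed here, together with Sgsh, the only called gene whose window held the core. Capitals mark the match, with 15 bases on each side.
Mcoln1: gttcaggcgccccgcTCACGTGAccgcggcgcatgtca
Cln3: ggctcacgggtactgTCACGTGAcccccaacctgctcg
Ctsa: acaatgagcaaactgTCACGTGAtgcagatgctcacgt
Ctsd: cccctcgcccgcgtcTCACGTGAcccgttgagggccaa
Gla: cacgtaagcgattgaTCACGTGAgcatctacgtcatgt
Atp6v0d1: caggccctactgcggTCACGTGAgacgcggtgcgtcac
Atp6v0e: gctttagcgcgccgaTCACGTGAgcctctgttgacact
Atp6v1a: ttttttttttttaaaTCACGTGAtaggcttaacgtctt
Sgsh: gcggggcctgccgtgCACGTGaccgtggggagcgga

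The stretches lie at chr8:3500458-3500495 (plus strand) for Mcoln1 and chr7:126583336-126583373 (minus) for Cln3. Those of the proteases are at chr2:164833745-164833782 (plus) for Ctsa and chr7:142387904-142387941 (minus) for Ctsd. The remaining hydrolases are at chrX:134601211-134601248 (minus) for Gla and chr11:119355519-119355554 (minus) for Sgsh. Those of the pump are at chr8:105566046-105566083 (minus) for Atp6v0d1, chr17:26676383-26676420 (plus) for Atp6v0e and chr16:44139369-44139406 (minus) for Atp6v1a. Relative to the transcript start at 0, the matches began between -228 (Gla) and 2 (Atp6v0e).

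None of the 8 genes with the extended E-box was called, where 6.88% of all table genes with that form were. Their log2 fold changes ran from -0.28 (Mcoln1) to 0.31 (Atp6v1a), with a median of -0.15. The 8 genes with the core only had a median of -0.04, with Sgsh called lower. Of all table genes with the core, including those with the extended form, 7.12% were called. The 27 with neither had a median of -0.04, with 3 called lower and 1 higher (8.57% of all table genes without the core were called). Hexa, Neu1, Npc2 and Atp6v1g2 are in the last class. A match describes the letters and not a binding site, and the classes differ in which genes they hold, so the medians are given without a test.

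**Figure D4:**
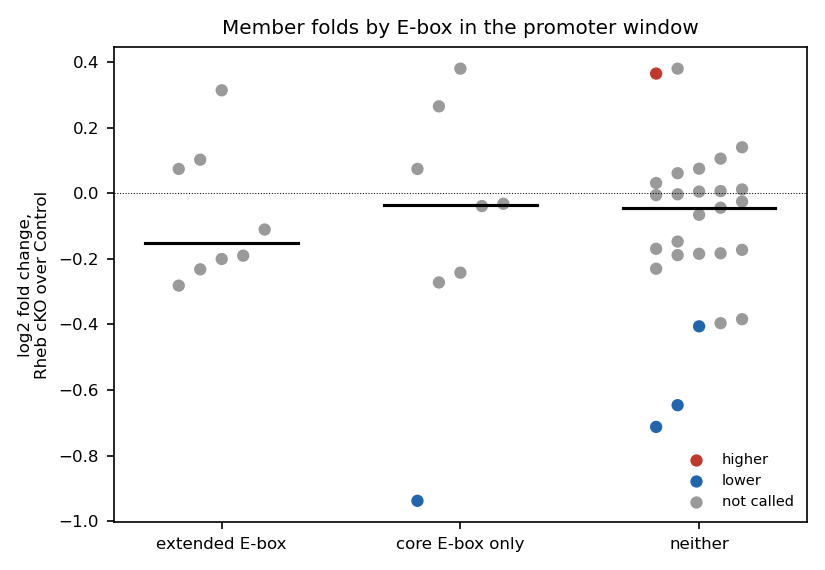
Log2 fold change of Rheb cKO over Control (vertical axis) for the 43 members with a promoter window, split by the E-box found in it; black bars are medians. Points are coloured by the call at a q under 0.05. Of the 5 called genes shown, 4 are among the 27 members with neither form, the largest class. Over all table genes without the core, 8.57% were called. Atp6v0a2, also called, has no window and is not shown.

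Exons of 20 members overlap exons of another gene in GENCODE M21, 18 of them on the opposite strand and 3 on the same strand. The libraries were made with a stranded kit, but the strand setting of the counting is not given, so reads from overlapping exons could be shared. Among the called genes this touches Sgsh (955 bases with Card14), Atp6v0a2 (663 bases with an antisense RNA), Hexa (255 bases with Tmem202) and Atp6v1g2 (144 bases with Nfkbil1), all on the opposite strand. Neu1 and Npc2 overlap no other exon. Tmem202 had 1.43 FPKM in Rheb cKO and 1.25 FPKM in Control, and Nfkbil1 had 47.5 FPKM in Rheb cKO and 48.6 FPKM in Control, in the authors' deposited table. Atp6v0c and Cd63 also have processed pseudogenes in GENCODE M21, and how reads shared with those copies were divided is not given.

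Further genes of the same organelle were taken from lists, with 126 of 139 listed genes measured. Of these, 6 fell and 3 rose in the authors' deposited table, and the median log2 fold change was -0.02. The called genes were 7.14% of the 126, against 8.72% of all genes, and those lower 4.76%, against 4.58%, so both shares lie near those of the whole table. Among 40 other lysosomal hydrolases 2 fell and 1 rose (7.5% called, median -0.03). Dpp7, a dipeptidyl peptidase, had 6.07 FPKM in Rheb cKO and 11.9 FPKM in Control in the authors' deposited table (-0.97, q = 0.00699). Naaa, which cleaves fatty acid ethanolamides, had 5.35 FPKM in Rheb cKO and 8.84 FPKM in Control in the authors' deposited table (-0.73, q = 0.0194). Pcyox1, which degrades prenylcysteines, rose, with 19.3 FPKM in Rheb cKO and 13.5 FPKM in Control in the authors' deposited table (0.52, q = 0.00291).

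Among 37 other lysosomal membrane proteins 3 fell and 1 rose (10.8% called, against 8.72% of all genes), and 26 had a fold below 0 (median -0.15). Tmem63a, a stretch-activated channel, had 1.56 FPKM in Rheb cKO and 5.36 FPKM in Control in the authors' deposited table (-1.78, q = 0.00161). Litaf, a protein of late endosome membranes, had 1.91 FPKM in Rheb cKO and 4.47 FPKM in Control in the authors' deposited table (-1.23, q = 0.00161). Abcd4, which helps cobalamin leave the lysosome, fell as well (-0.73, q = 0.0111 in the authors' deposited table), while the amino acid transporter Slc36a4 rose (0.39, q = 0.0429 in the authors' deposited table).

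Genes that deliver and mature lysosomal enzymes gave 1 call in 24 (4.17%), an increase of Cln6, an endoplasmic reticulum protein that helps export them (0.55, q = 0.0194 in the authors' deposited table). The sorting receptors M6pr (-0.12, q = 0.649), Sort1 (0.11, q = 0.658) and Igf2r (0.15, q = 0.841) were not called in the authors' deposited table. Of 19 partners of the pump 0 were called by Cuffdiff, against 8.72% of all genes. At an unadjusted p under 0.05, which 21.2% of all genes passed, 2 partners were higher and 1 lower. Rnasek, a pump-associated protein, had 667.0 FPKM in Rheb cKO and 668.7 FPKM in Control (0.00, q = 0.994 in the authors' deposited table), and Dmxl2, part of the complex that joins V1 to V0, had a fold of 0.33 (q = 0.0863 in the authors' deposited table). In the TFEB family Tfeb was the 1 gene of 6 called, lower in Rheb cKO (-0.72, q = 0.00161 in the authors' deposited table). That is 16.7% of the list, against 8.72% of all genes, and the share rests on this 1 gene. Its relative Tfe3 had a fold of -0.06 (q = 0.891 in the authors' deposited table).

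**Figure D5:**
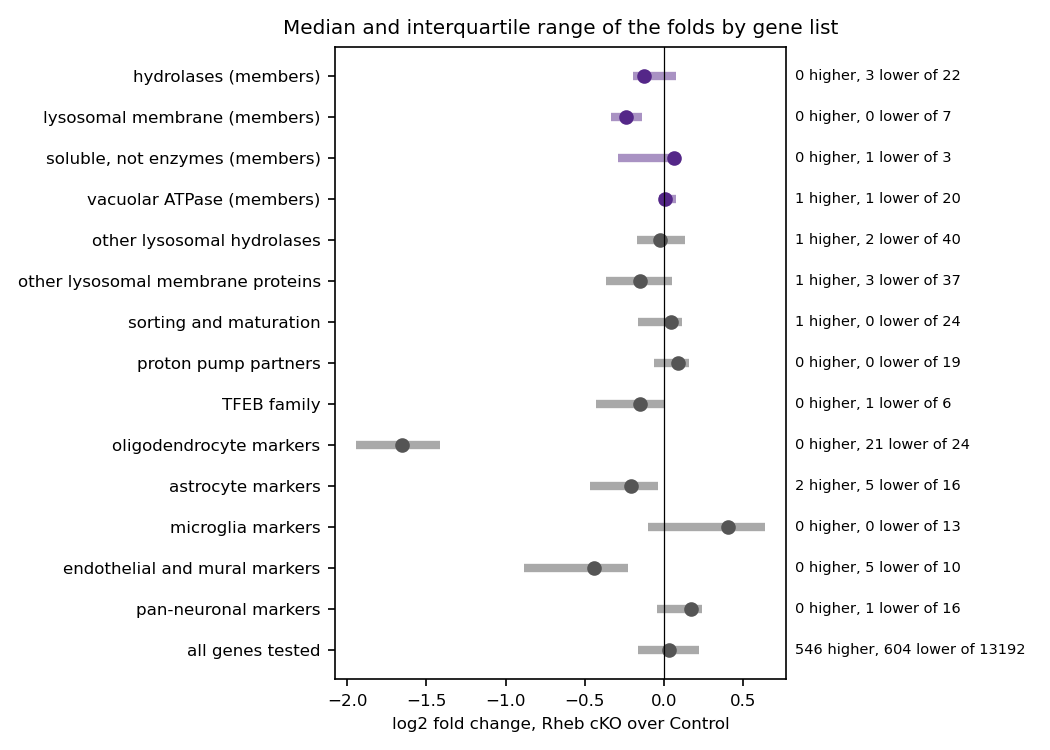
Median (point) and interquartile range (bar) of the log2 fold changes of Rheb cKO over Control for the members by class, the further lysosomal lists, cell type markers and all genes, with the number called in each direction at a q under 0.05. The median of the lysosomal membrane members, -0.24, lies below the interquartile range of all genes (-0.17 to 0.22), those of the hydrolases and the pump lie inside it, and that of the oligodendrocyte markers is -1.66.

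Markers of several cell types were read in the same comparison. Over all genes, 8.72% were called, 4.14% higher and 4.58% lower, and 21.2% had an unadjusted p under 0.05. Counts near these shares, as for the microglia and pan-neuronal lists, say little about those cells. Oligodendrocyte markers had a median log2 fold change of -1.66, and 24 of 24 were below 0. Of 16 astrocyte markers 5 fell and 2 rose, with a summed FPKM of 2391 in Rheb cKO and 3046 in Control. Endothelial and mural cells were represented by 10 of 16 listed markers, of which 5 fell. Their summed FPKM was 62.7 in Rheb cKO and 103 in Control, with a highest value of 24.4 FPKM in Rheb cKO and 51.5 FPKM in Control. Microglia, cells rich in lysosomes, were represented by 13 of 18 listed markers, of which 0 were called by Cuffdiff and 4 were higher at an unadjusted p under 0.05. Their summed FPKM was 46.9 in Rheb cKO and 37.0 in Control, with single genes between 0.694 and 8.30 FPKM in Rheb cKO and between 0.524 and 6.22 FPKM in Control. Pan-neuronal markers had a median of 0.17, with 1 of 16 called, lower in Rheb cKO. The oligodendrocyte, astrocyte and vascular lists were thus lower beside Hexa, Neu1, Sgsh, Npc2 and Atp6v0a2. The pan-neuronal median (0.17) and the microglia median (0.40) were both above 0 beside Atp6v1g2. The part of these cell types in those results was not tested.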

How the data were processed

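Tagged ribosomes of mouse cortex were precipitated, and stranded mRNA libraries were made, per the labels' protocols. TopHat2 2.1.0, Cuffdiff 2.2.1 and the build mm10 are named in the submitters' processing notes, with no role or settings. The FPKM columns hold, per the file headers, a single deposited value per gene for each group of 3 libraries. The deposited table also holds a log2 fold change of Rheb cKO over Control with no pseudocount, a test score, a p-value and a q-value for each of 13192 genes, all with status OK. The shorter table holds the 1150 genes called at a q under 0.05. Medians leave out 17 genes that are listed at 0 in a group and so lack a finite fold.

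Members were matched by symbol. Counts of called genes use the authors' q, adjusted over the whole table, except where an unadjusted p or a new adjustment after the FPKM filter is named. Medians, sums and isoform shares were computed from the deposited values with no test. Coordinates, transcript length and GC are from GENCODE M21 (same build as mm10), which held 99.7% of the gene IDs, and positions count from 1. Promoter sequences are from RefSeq (GRCm38.p6). The adjustment and trend removal were tested on simulated data.

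The members, lists and tests were chosen with earlier results of these data known. Genes named are every called member, members with a fold of 0.5 or more in size on the log2 scale, the 3 most abundant of each role, pump isoforms, Rheb, and, from the further lists, at most 4 called genes each whose mean FPKM reached 1; other names were chosen after their values were seen. Where libraries share an animal, a q-value covers technical spread only. Alternatives were other q thresholds, a filter on FPKM, a fold minimum, a pseudocount, centring and removal of the trend on length and GC. Python 3.11.15, numpy 2.4.6, pandas 2.3.3 and matplotlib 3.10.9 were used. Some genes of the further lists are not reported here by name.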

Additional observations from a re-analysis of the deposited data

How the results depend on the processing

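At a q under 0.01 there were 3 called members in place of 6 (Hexa, Npc2 and Atp6v0a2), 1 of them in the pump in place of 2 and 2 among the lysosomal proteins in place of 4. With a fold of 0.5 or more in size on the log2 scale as a further condition, 1 pump gene (Atp6v0a2) was called in place of 2, and Atp6v1g2 and Neu1 no longer counted. At a q under 0.10 there were 8 called members, Tpp1 and Atp6v1a being added. With genes of a mean FPKM of 1 or more adjusted again, the same 6 were called. Medians by class moved by less than 0.05 under each of the 4 other scalings and filters, and that of the pump was -0.03 when centred on all genes, against 0.01 as deposited. No paired analysis was possible because the values are pooled over the libraries of a group, and for the same reason leaving out a replicate was not run. Depth per library is unknown here, so low genes such as Sgsh and Manba rest on an unknown number of reads.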

Other observations

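The extended E-box was also read in all table genes with a promoter window. Of 218 such genes with the extended form 15 were called, 6.88%, with 7 higher and 8 lower in Rheb cKO, and their median log2 fold change was 0.01. Of 1151 genes with the core 82 were called (7.12%), and of 8638 genes without it 740 were called (8.57%), against 8.72% of all genes. The median was 0.01 with the core and 0.03 without it. These are counts over genes of this table, with no test.

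Lysosomal genes that are also used as microglia markers were Cd68 and Ctss above 0 and Laptm5 below it. Cd68 had 8.30 FPKM in Rheb cKO and 5.14 FPKM in Control (0.69, q = 0.0933 in the authors' deposited table). Ctss, a cathepsin of phagocytes, had 1.69 FPKM in Rheb cKO and 1.06 FPKM in Control (0.67, q = 0.165 in the authors' deposited table). Laptm5, a lysosomal protein of blood cells, had 0.807 FPKM in Rheb cKO and 1.05 FPKM in Control (-0.38, q = 0.616 in the authors' deposited table).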
